A study of Mus musculus with 2 samples.

Results

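The 32 genes described here code for proteins that carry out mitosis: the kinases that start it, the kinetochore that ties chromosomes to the spindle, the checkpoint that watches this attachment, and the motors and scaffolds that part the cell. They were taken by name from a list, and all 32 were found among 21827 protein-coding genes of GENCODE vM21 on the mouse assembly mm10. The data were DNase-seq maps of whole spleen, in which the enzyme DNase I cuts DNA where no nucleosome covers it, so that a peak of cuts marks accessible chromatin and a short protected gap inside a peak, a footprint, marks bases shielded from the enzyme. There was 1 group of 2 libraries, labelled biological replicates 1 and 2, from male B6CASTF1/J mice at 4 days of age, the first-generation cross of C57BL/6J with the wild-derived strain CAST/EiJ. The labels number the animals separately but give both the same donor code, and they name no engineered allele, transgene or agent. With no other condition, the values describe a single tissue at a single age, and their error is the SD between the 2 libraries.

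Mitotic genes are transcribed in the G2 and M phases of dividing cells and are repressed in resting cells. As background, much of this timing is attributed to the CHR element (cell cycle genes homology region), a short word near the transcription start that is bound by the MuvB complex. MuvB joins the pocket proteins and E2F4 in the repressive DREAM complex, and B-MYB and FOXM1 in the activating forms; NF-Y, which binds CCAAT boxes upstream of the CHR, is needed for full activity at many of these promoters. In the newborn spleen of mice, erythroid precursors divide rapidly, next to the growing lymphoid compartment.

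The replicate 1 library held 80323 peaks and 217159 footprints, and the replicate 2 library 88723 peaks and 252901 footprints. The labelled tissue was checked against marker genes for its main cell types. Promoter peaks in both libraries were found at 8 of 8 erythroid markers, with signals in replicates 1 and 2 from 1.23 and 0.977 at Alas2 to 20.8 and 16.0 at Tfrc. They were also found at 5 of 5 B cell markers, with 2.99 and 4.02 at Ebf1, the highest of them. The erythroid signals were higher in replicate 1 at all 8 genes and the B cell signals higher in replicate 2 at all 5. Of 3 markers each, 1 had a promoter peak in both libraries for neutrophils (S100a8), macrophages (Adgre1) and spleen stroma (Tlx1). The S100a8 signals were 1.81 and 2.14. Those of Adgre1 and Tlx1 were weak, below the median of all peaks in each library (0.796 in replicate 1 and 0.650 in replicate 2). No macrophage or stroma marker had a promoter peak of the authors' stricter peak list in both libraries. Elane, Mpo, Spic and Nkx2-5 had no promoter peak in either library, and Csf1r and Pdgfrb had one in a single library. Hepatocyte markers (0 of 4) and neuronal markers (0 of 2) had none in both libraries. In a mixed tissue, more cells with an open promoter and a more open promoter per cell cannot be told apart.

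The sequences below show the core promoters on which the later word counts turn: 8 of the members that hold both a CHR word and a CCAAT word, at least 1 of them inside a footprint found in both libraries, and Prc1, which had the strongest promoter of the 32. Each runs 5′ to 3′ on the gene's strand from 140 bases before to 30 bases after the start site, read from the C57BL/6J reference of mm10, so that bases specific to the CAST/EiJ allele are not shown. Capitals mark TTTGAA (the CHR word) and CCAAT, or their reverse complements TTCAAA and ATTGG.
Ect2, chr3:27153849-27154018, minus strand: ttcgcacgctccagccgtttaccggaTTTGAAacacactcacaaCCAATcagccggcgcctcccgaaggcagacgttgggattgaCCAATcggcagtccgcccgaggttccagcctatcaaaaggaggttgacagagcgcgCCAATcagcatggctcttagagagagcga
Cenpf, chr1:189688057-189688226, minus strand: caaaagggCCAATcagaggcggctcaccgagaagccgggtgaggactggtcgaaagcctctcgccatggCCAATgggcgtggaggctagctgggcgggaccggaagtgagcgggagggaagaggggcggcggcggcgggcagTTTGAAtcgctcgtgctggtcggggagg
Nusap1, chr2:119618577-119618746, plus strand: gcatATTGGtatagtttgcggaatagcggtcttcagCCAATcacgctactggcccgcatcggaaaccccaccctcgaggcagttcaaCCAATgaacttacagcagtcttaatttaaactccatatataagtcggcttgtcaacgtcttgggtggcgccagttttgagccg
Kif11, chr19:37376263-37376432, plus strand: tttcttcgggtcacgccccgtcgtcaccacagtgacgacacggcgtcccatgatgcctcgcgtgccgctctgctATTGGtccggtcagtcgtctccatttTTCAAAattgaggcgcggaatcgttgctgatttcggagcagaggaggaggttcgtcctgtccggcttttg
Cdca8, chr4:124936888-124937057, minus strand: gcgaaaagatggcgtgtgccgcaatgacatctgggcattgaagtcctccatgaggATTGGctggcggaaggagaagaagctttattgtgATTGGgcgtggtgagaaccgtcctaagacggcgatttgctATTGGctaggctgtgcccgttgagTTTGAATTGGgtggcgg
Spc25, chr2:69206165-69206334, minus strand: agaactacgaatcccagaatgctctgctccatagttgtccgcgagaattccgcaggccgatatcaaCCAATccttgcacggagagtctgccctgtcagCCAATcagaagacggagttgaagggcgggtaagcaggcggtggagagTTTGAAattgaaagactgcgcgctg
Plk1, chr7:122159299-122159468, plus strand: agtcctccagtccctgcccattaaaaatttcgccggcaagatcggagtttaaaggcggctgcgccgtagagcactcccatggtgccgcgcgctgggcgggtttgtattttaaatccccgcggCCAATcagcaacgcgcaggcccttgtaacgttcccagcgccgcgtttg
Aurkb, chr11:69045507-69045676, plus strand: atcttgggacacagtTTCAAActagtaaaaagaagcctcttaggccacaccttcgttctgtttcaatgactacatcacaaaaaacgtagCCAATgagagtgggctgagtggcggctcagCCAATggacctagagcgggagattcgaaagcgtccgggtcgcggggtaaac
Prc1, chr7:80294310-80294479, plus strand: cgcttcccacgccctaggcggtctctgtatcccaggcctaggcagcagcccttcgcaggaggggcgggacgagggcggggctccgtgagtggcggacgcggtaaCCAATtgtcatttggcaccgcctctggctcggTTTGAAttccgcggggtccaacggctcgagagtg
Of the CHR words in the core promoters of these members, those of Plk1 and Nusap1 and the one farther downstream in Ect2 lie beyond the printed stretch. In Cdca8 the CHR word TTTGAA runs into ATTGG, with which it shares only its last base. Footprints of replicate 1 that overlapped one of replicate 2 covered 7 of 19 printed CCAAT words and 1 of 7 printed CHR words. These are the footprints called found in both libraries. The CHR word was that of Kif11, and the CCAAT words lay in Ect2 (2 of them), Cenpf, Nusap1, Cdca8, Spc25 and Aurkb. In Cenpf, Nusap1 and Aurkb the covered CCAAT word itself lay in a footprint of replicate 1 only.

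All 32 promoters were accessible. A gene's promoter signal is here the highest deposited peak signal within 1 kb of any of its protein-coding start sites; the scale of this signal is not stated, and its values are compared only within these libraries. All 32 members had a promoter peak in both libraries, against 60.1% of all genes (13122 of 21827). They also all had a peak of the authors' stricter list in both libraries, against 54.7% of all genes, and a footprint in each library, against 58.9%. CpG-rich promoters are accessible in most tissues, so each member was set beside the other genes whose CpG ratio (observed over expected CpG) lay within 0.05 of its own. Among those genes, on average over the members, 90.5% had a peak in both libraries, 85.3% had a stricter peak and 89.5% had a footprint in each. The share of open promoters was thus only somewhat above that of genes of like CpG content.

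Peak height differed more. The members' median promoter signal was 11.8 in replicate 1 and 9.69 in replicate 2, with a mean over the libraries of 10.9 and a range of 4.05 to 21.4. All genes with a promoter peak in both libraries had a median of 5.83, and 31 of the 32 members lay above it. The exception was Pttg1. For open genes of like CpG ratio the median was 7.32, averaged over the members. By that median taken for each member, 23 of the 32 lay higher. Among genes of like CpG ratio, counting genes with no peak as 0, the members' median percentile was 68.7; 24 of 32 lay above the 50th percentile, 13 above the 75th and 0 below the 25th. The percentiles ran from 41.8 for Aurkb to 95.7 for Birc5. They are a description of these promoters, with no test.

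**Figure D1:**
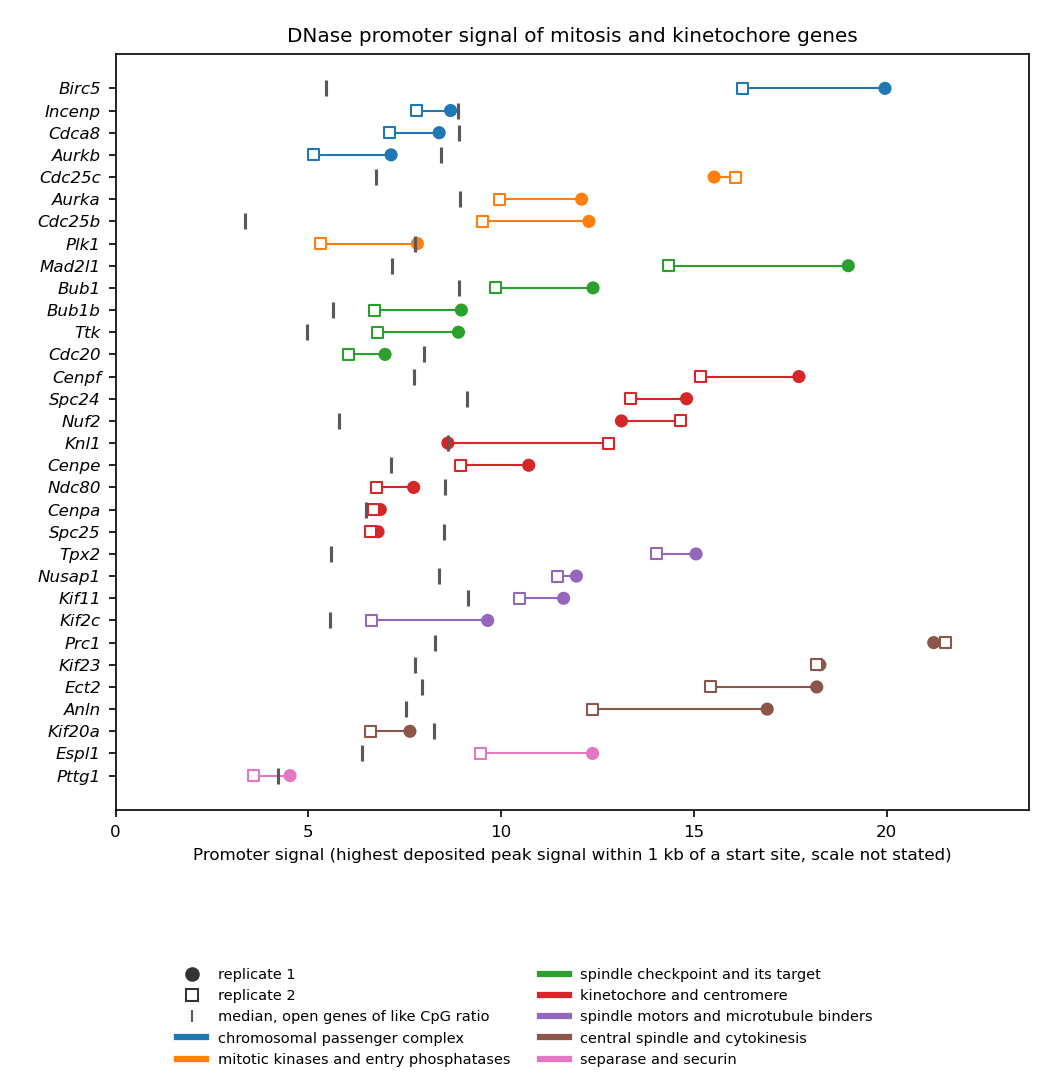
Promoter signal of the 32 members by role. The x axis is the highest peak signal within 1 kb of a start site on the deposited linear scale; filled circles are replicate 1, open squares replicate 2, grey ticks the median of open genes of like CpG ratio, and colours the roles of the proteins. Central spindle and cytokinesis genes reach the highest value, 21.4 for Prc1, and Pttg1 has the lowest, 4.05 (means of the libraries).

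In what follows each pair of signals is replicate 1 and then replicate 2, followed by the mean and SD. Signals were not centred, so the SD includes the offset between the libraries. Over all open genes the median ratio of replicate 1 to replicate 2 was 1.18. A small SD thus does not by itself mean a closer match of the libraries. The chromosomal passenger complex, which corrects faulty attachments and directs cytokinesis, held both ends of the percentile range by the mean of the libraries. Birc5 (chromosome 11, start site at 117849251), survivin, which brings the complex to centromeres, had 19.95 and 16.3 (18.1 ± 2.61). Aurkb, the kinase of the complex, had 7.15 and 5.14 (6.14 ± 1.42), so that both of its values lay below both of Birc5's. Incenp, the scaffold that activates Aurkb, and Cdca8, borealin, lay nearer to Aurkb, with 8.69 and 7.81 (8.25 ± 0.6202) for Incenp and 8.39 and 7.12 (7.75 ± 0.902) for Cdca8. Birc5 thus exceeded its 3 partners in the complex by more than the spread between libraries.

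Among the mitotic kinases and the phosphatases that start mitosis, the phosphatase Cdc25c (chromosome 18) was highest, at 15.5 and 16.1 (15.8 ± 0.389). Its relative Cdc25b had 12.3 and 9.52 (10.9 ± 1.95); this was the member with the lowest CpG ratio, 0.542, and its percentile among like-CpG genes was 89.5. Aurka, the kinase of spindle poles, had 12.1 and 9.96 (11.02 ± 1.503). Plk1, the polo kinase that acts from entry to cytokinesis, was lowest of the 4 at 7.83 and 5.33 (6.58 ± 1.77). In both libraries Plk1 lay below the other 3.

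Of the spindle checkpoint genes, Ttk, Bub1b and Cdc20 lay below the members' median. Mad2l1 (start site on chromosome 6 at 66535390), which forms part of the inhibitor of the anaphase-promoting complex, was highest with 19.0 and 14.4 (16.7 ± 3.29). The kinases Bub1 and Ttk (MPS1) had 12.4 and 9.86 (11.1 ± 1.78) and 8.89 and 6.79 (7.84 ± 1.49), and Bub1b, BUBR1, had 8.97 and 6.72 (7.84 ± 1.59). Cdc20, the activator of the anaphase-promoting complex and the target of the checkpoint, had 6.99 and 6.05 (6.52 ± 0.667). Both Mad2l1 values lay above every value of the other 4 genes.

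The 8 kinetochore and centromere genes ranged from 6.71 to 16.4, with a median of 10.3. The NDC80 complex, which holds the microtubule end, did not have one level: Spc24 had 14.8 and 13.4 (14.1 ± 1.02) and Nuf2 13.1 and 14.6 (13.9 ± 1.08), but Ndc80 had 7.73 and 6.76 (7.24 ± 0.689) and Spc25 6.81 and 6.61 (6.71 ± 0.136). Spc24 and Nuf2 were above Ndc80 and Spc25 in each library. Knl1 (chromosome 2, start site at 119047119), the scaffold that recruits checkpoint proteins, had 8.62 and 12.8 (10.7 ± 2.94). Cenpa, the centromeric histone, had 6.87 and 6.695 (6.78 ± 0.1205), Cenpe, a kinesin of the outer kinetochore, 10.7 and 8.94 (9.83 ± 1.26), and Cenpf, a coiled-coil protein of the kinetochore, 17.7 and 15.2 (16.4 ± 1.802). Cenpf exceeded all the other kinetochore members in both libraries.

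Spindle motors and microtubule binders ranged from 8.14 to 14.5. Tpx2, which activates Aurka on the spindle, had 15.1 and 14.02 (14.5 ± 0.728), Kif11, the bipolar kinesin that drives the poles apart, 11.6 and 10.5 (11.1 ± 0.802), and Nusap1, a microtubule-bundling protein, 11.95 and 11.4 (11.7 ± 0.355). Kif2c, a kinesin that depolymerises microtubule ends, had 9.65 and 6.63 (8.14 ± 2.14). The central spindle and cytokinesis genes had the highest median of the roles, 16.8. Prc1, which crosslinks the antiparallel microtubules of the midzone, had 21.2 and 21.5 (21.4 ± 0.225), and Kif23, the kinesin of centralspindlin, 18.3 and 18.2 (18.2 ± 0.0641). Ect2, the exchange factor that activates RhoA, had 18.2 and 15.4 (16.8 ± 1.95), and Anln, anillin, a scaffold of the contractile ring, 16.9 and 12.4 (14.6 ± 3.21). The odd one out was the kinesin Kif20a (chromosome 18), with 7.63 and 6.61 (7.12 ± 0.728), below the other 4 in both libraries. Of the pair that controls sister separation, Espl1, separase, had 12.4 and 9.47 (10.9 ± 2.05), and its inhibitor Pttg1 (chromosome 11, start site at 43426251), securin, had 4.53 and 3.58 (4.05 ± 0.672), the lowest of the 32 in each library.

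**Figure D2:**
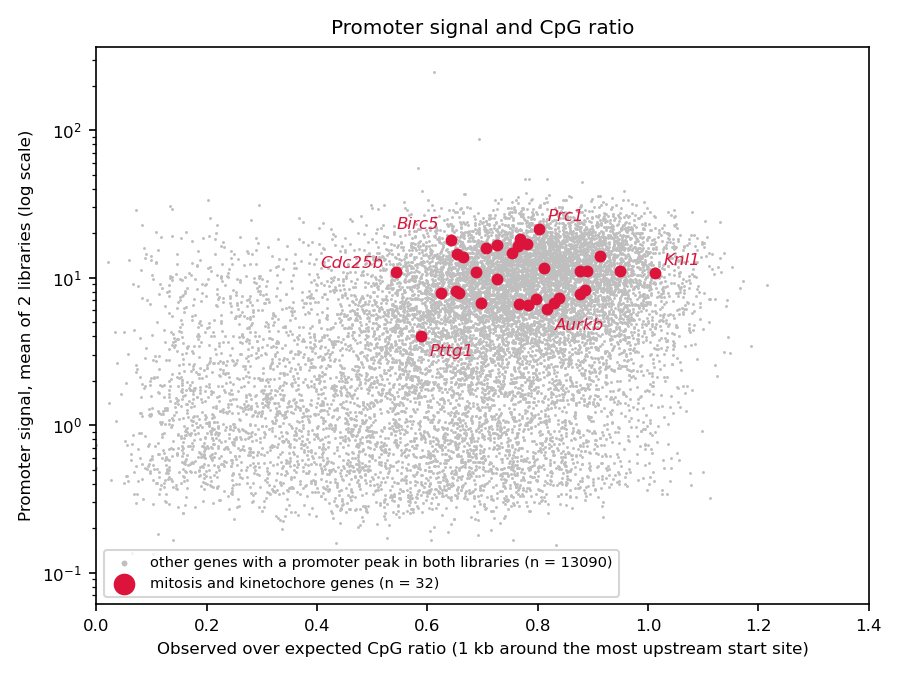
Promoter signal against CpG ratio. The x axis is the observed over expected CpG ratio in 1 kb around the most upstream start site and the y axis is the mean promoter signal of the libraries on a log scale; grey points are other genes with a promoter peak in both libraries and red points the members. Members span ratios of 0.542 to 1.01, and 23 of the 32 lie above the median of open genes of like CpG ratio.

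The strongest promoter peaks of the libraries overlapped at all 32 members, against 95.5% of other open genes. Their midpoints lay at a median of 57 bases before the start site in replicate 1 and 53.5 bases before it in replicate 2, and the peak covered the start site in 28 members (87.5%) in each library, against 68.2% of other open genes in replicate 1 and 69.0% in replicate 2. The median peak width was 200 bases in both libraries, against 180 over all peaks. At 5 members another gene started within 1 kb: Aurka with Cstf1, Kif20a with Brd8, Cdca8 with 9930104L06Rik, Nusap1 with Oip5 and Cdc25b with Spef1. The share of other genes with such a neighbour was not computed. A shared peak cannot be assigned to either gene. Oip5 is also among the other mitosis genes described below, with the same signals as Nusap1, 11.95 and 11.4.

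Footprints were about as many as at genes of like CpG ratio. Within 1 kb of their start sites the members held a median of 9 footprints in replicate 1 and 8 in replicate 2, and 187 of 279 replicate 1 footprints (67.0%) overlapped one of replicate 2, against 69.8% at other open genes. The number found in both libraries had a median percentile of 51.2 among like-CpG genes; 9 members had more than the median of open genes of like CpG ratio, 12 had fewer and 11 had the same. Knl1 had most, 14, and Cenpf had 10, while Cdc20 had 3, at a percentile of 21.7. The number of bases with a deposited false discovery rate of 0.001 or less was 828 in replicate 1 and 818.5 in replicate 2 at the median member, with a median percentile of 59.8. Depth of the libraries is unknown, so a count of footprints has no stated precision.

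Core promoters of the members were then searched for short words, on both strands, from 250 bases before to 50 bases after the start site nearest to the strongest peak. The CHR word TTTGAA was found in 19 of 32 members (59.4%). It was found in 15.4% of all genes, in 10.6% of other open genes (1389 of 13090) and in 9.92% of open genes of like CpG ratio, averaged over the members. The same letters read backwards, AAGTTT, were found in 7 members (21.9%), against 10.5% of other open genes and 13.6% of all genes. The CCAAT word was found in 25 members (78.1%), against 38.6% of all genes, 37.9% of other open genes and 39.1% of like-CpG open genes. TAACC, its letters backwards, was in 12 members (37.5%), against 21.2% of other open genes and 24.0% of all genes. Both reversed words were thus also more frequent in members than in other open genes, but by a smaller margin than the words themselves. Taken as a ratio of the members' share to that of other open genes, the excess of CCAAT was only somewhat above that of TAACC.

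**Figure D3:**
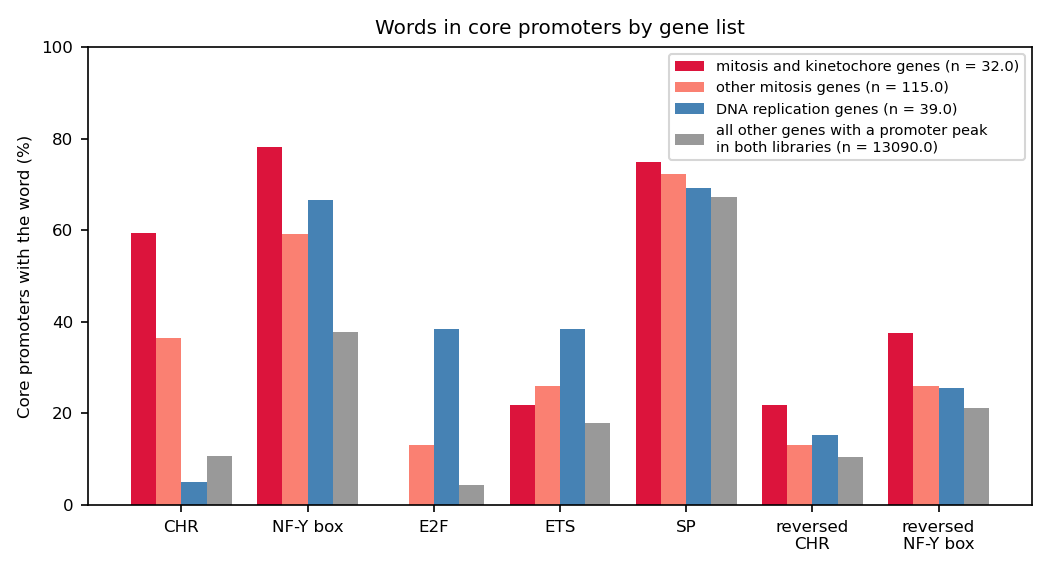
Share of core promoters that hold each word. The y axis is the percent of genes with at least 1 match from 250 bases before to 50 after the start site, and the bars are the members, other mitosis genes, DNA replication genes and all other genes with a promoter peak in both libraries; the NF-Y box is CCAAT. The CHR word is in 59.4% of members and 10.6% of other open genes, and the E2F words are in 0 members and 38.5% of replication genes.

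Most CHR words of the members lay at the start site. Of its 21 matches in members, 18 (85.7%) lay within 50 bases of the start site, against 318 of 1532 (20.8%) in other open genes. On the gene's own strand lay 16 of the 21, against 747 of 1532. In Espl1 the word began at the start site itself, in Cenpf, Spc25 and Cdca8 at 2, 5 and 13 bases after it, and in Prc1, Aurka and Cdc20 at 4, 3 and 9 bases before it. Aurkb and Nusap1 held theirs far upstream, at 125 and 250 bases before the start site.

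**Figure D4:**
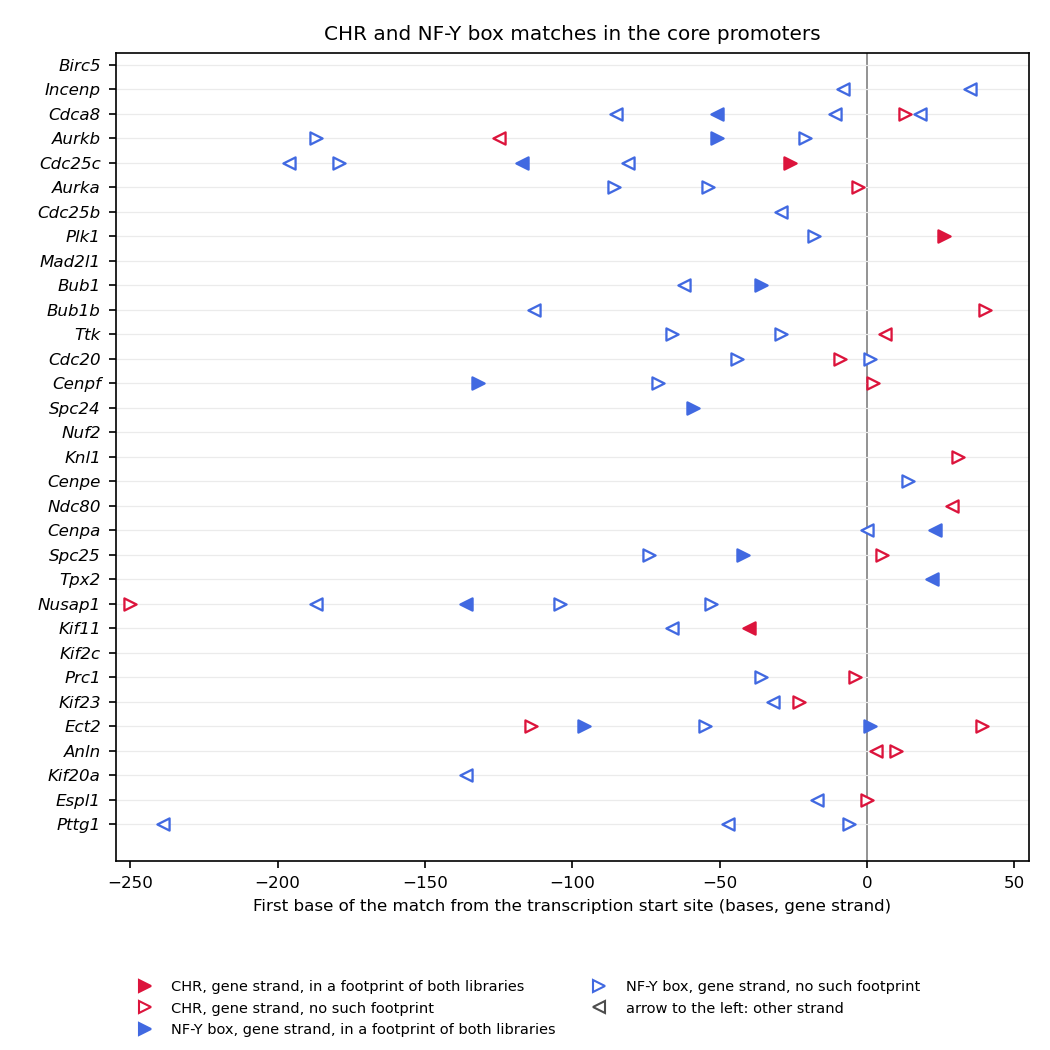
Positions of CHR and CCAAT words in the members' core promoters. The x axis is the first base of the match in bases from the start site, negative upstream, with 1 row per member. Red marks are CHR and blue marks CCAAT (NF-Y box), pointing right on the gene's strand. Marks are filled where the word lies in a replicate 1 footprint that overlaps one of replicate 2. Of the CHR words 18 of 21 lie within 50 bases of the start site, and 40 of 48 CCAAT words begin upstream of it. The window runs from 250 bases before to 50 after the start site, so most searched positions are upstream.

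Both words occurred together in 16 of 32 members, against 599 of 13090 other open genes (4.58%). Neither occurred in 4 members (12.5%), Birc5, Nuf2, Mad2l1 and Kif2c, against 56.1% of other open genes. More than 1 CCAAT word was present in 14 members (43.8%), against 14.4% of other open genes, and 6 (18.8%, against 3.15%) had a pair on the same strand 30 to 40 bases apart: Aurka, Aurkb, Ttk, Spc25, Cdca8 and Cdc25c. A CHR word on the gene's strand 30 to 40 bases downstream of a CCAAT word was found in Cdc20 (35 bases), Prc1 (32 bases) and Ect2 (38 bases), 9.38% of members against 0.168% of other open genes. The Prc1 sequence printed above shows this arrangement of CCAAT and TTTGAA just upstream of the start site; in Ect2 the CHR word of the pair lies beyond the printed stretch.

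The CHR word was seldom inside a footprint. Of the 21 matches 3 (14.3%) lay in a footprint found in both libraries, in Plk1, Cdc25c and Kif11, against 10.7% of matches in other open genes. The reversed word gave 1 of 8 (12.5%) in members and 9.79% in other open genes. CCAAT words were in such footprints for 12 of 48 matches (25.0%), against 21.5% in other open genes, and their reversed word for 4 of 14 (28.6%), against 13.3%. Among the 12 CCAAT matches, those in Cenpf, Nusap1 and Aurkb were themselves covered in replicate 1 only. Per gene, within 1 kb of a start site, 11 members had a CCAAT word in a shared footprint, against 14.0% of other open genes, and 6 had a CHR word in one (Nuf2, Plk1, Birc5, Cdc25c, Incenp and Kif11), against 1.96%. The reversed CCAAT word was in one for 6 members, against 5.29%, and the reversed CHR word for 1, against 1.79%. By match, the protected shares of CHR and CCAAT words thus lay close to those of other open genes. A word outside a footprint says nothing about a factor's binding.

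Words of other factors were searched in the same windows. None of the E2F words TTTGGCGC, TTTCCCGC, TTTGCCGC and TTTCGCGC was in a member's core promoter, against 2.95% of all genes, 4.28% of other open genes, 15 of 115 other mitosis genes and 15 of 39 DNA replication genes (38.5%). This says only that these letters are not in these windows. The ETS word CCGGAAG was in 7 members (21.9%, against 17.9% of other open genes and 11.7% of all genes) and the SP word GGGCGG in 24 of 32 (against 67.2% and 47.3%). The NRF1 word TGCGCATGC was in Knl1 and Prc1 (other open genes 3.09%, all genes 2.36%), and the MYB word TAACGG in Aurka alone (3.8% and 2.95%). A variant CHR word, TTTAAA, was in 13 members (40.6%, against 8.56% of other open genes and 11.4% of all genes). DNA replication genes, whose transcription peaks earlier in the cell cycle, had the CHR word in 2 of 39 (5.13%) and CCAAT in 26 of 39 (66.7%).

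A list of 115 other mitosis genes gave the same picture of openness: 114 had a promoter peak of each list in both libraries. The exception was Kif14, a kinesin of cytokinesis, which had none within 1 kb in either library and a CpG ratio of 0.348. With a window of 2500 bases all 115 genes, Kif14 among them, had a peak of the longer list in both libraries. The median signal of the list was 11.1. The strongest by the lower library were Fzr1, which activates the anaphase-promoting complex (52.7 and 40.9), Nfya, a subunit of NF-Y (31.9 and 28.4), Anapc4, a subunit of the anaphase-promoting complex (32.2 and 27.0), Hjurp, the chaperone of the centromeric histone (30.4 and 25.7), and Ncapg, a condensin subunit (25.0 and 23.8). All 5 exceeded the strongest member, Prc1, in both libraries. The CHR word was in 42 of the 115 (36.5%) and CCAAT in 68 (59.1%), between the members and the other open genes. DNA replication genes, 39 of 39 of them open, had a median signal of 12.5.

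The members had about as many distal regions as other genes. A distal region is here a peak found in both libraries whose middle lies over 1 kb from every protein-coding start site, counted for a gene when within 50 kb of its start. Members had a median of 2.5 such regions, against 2 over all genes and 3 over the like-CpG genes of every member. No such region lay near 5 members (15.6%), Cdc20, Mad2l1, Nuf2, Spc25 and Prc1, against 24.8% of all genes and 13.2% of like-CpG genes. These 5 include Prc1, the strongest promoter of the list. Counts depended on the settings: with the stricter list 10 members had none (31.2%, against 34.5% of all genes), within 25 kb 11 (34.4%, against 38.5%) and within 100 kb 2 (6.25%, against 15.7%). The members' medians were then 2, 1 and 6.5, against 1, 1 and 5 over all genes. With regions of a single library counted, the median was 4 (replicate 1) or 3.5 (replicate 2), against 3 over all genes in each.

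**Figure D5:**
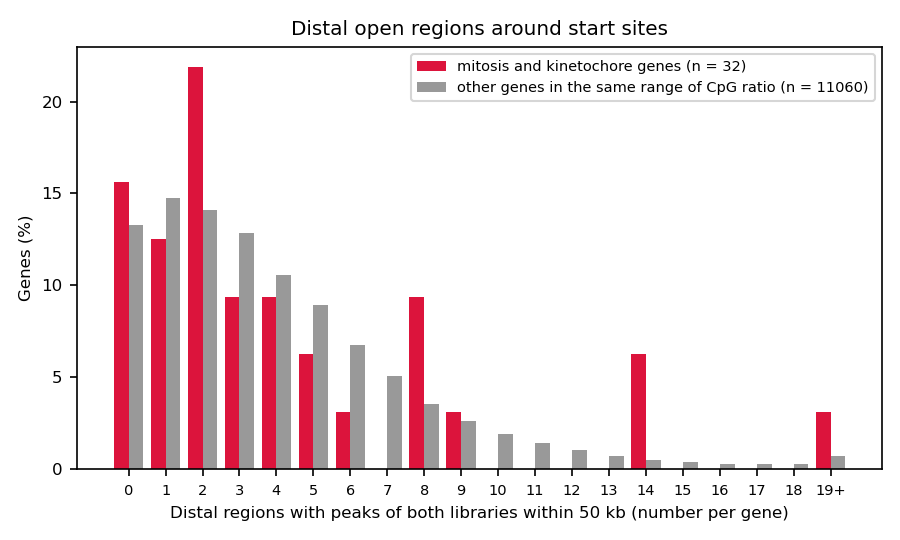
Distal regions within 50 kb of each member. The x axis is the number of regions found in both libraries and the y axis the percent of genes with that number, for the 32 members (red) and for 11060 other genes in the same range of CpG ratio (grey). The members follow the grey bars at low numbers, with 15.6% at 0, and Birc5, Cdc25b (14 each) and Aurkb (19) lie in the tail.

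At the other end 7 members (21.9%, against 11.5% of all genes) had 8 or more regions: Aurkb (19), Birc5 (14), Cdc25b (14), Kif23 (9), Aurka (8), Incenp (8) and Kif2c (8). Most belong by distance to neighbours. Of 135 regions near members 38 had the member's start site as the nearest, and none of those of Cdc25b and Aurka and 1 of Birc5's did. This share was not computed for other genes. Members had a median of 3 other protein-coding start sites within 50 kb, as did all genes. Incenp had 7 of its own, with the strongest at chr19:9916061-9916240 (3.21 and 3.88), and Kif23 had one 1427 bases upstream at chr9:61948101-61948300 (3.48 and 2.98). The median signal of the 135 was 1.25, against 0.834 over 39720 distal regions.

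Most distal regions of Aurkb lay over tRNA genes, which RNA polymerase III transcribes. Of its 19 regions 11 overlapped a nuclear tRNA gene of the RefSeq annotation, and no other member had any; over all distal regions 197 of 39720 (0.496%) did, with a median signal of 3.20. A row of 8 regions lay 3826 to 9576 bases upstream of Aurkb at chr11:69035981-69041920, and 7 of them covered tRNA genes for isoleucine, serine, threonine, proline, aspartic acid, glycine and tryptophan. Replicate 2 exceeded replicate 1 in 7 of the 8, against 37.4% of all distal regions. The strongest of the row by the mean of the libraries, chr11:69040241-69040480 on the plus strand, had 5.65 and 6.34 and is printed here with its footprints found in both libraries in capitals.
Upstream region of Aurkb: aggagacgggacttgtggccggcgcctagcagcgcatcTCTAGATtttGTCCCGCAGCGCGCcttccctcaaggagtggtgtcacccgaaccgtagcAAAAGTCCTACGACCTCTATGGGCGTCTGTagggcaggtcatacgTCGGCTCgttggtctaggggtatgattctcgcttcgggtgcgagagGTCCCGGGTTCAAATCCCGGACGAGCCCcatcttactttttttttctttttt
The 5 footprints took up 86 of its 240 bases, and the tRNA gene for proline (n-TPcgg3) lies at 69040385 to 69040456, in the last part of the stretch. Without tRNA regions Aurkb had 8 distal regions, 1 of them nearest to its own start site. The median signal of the 124 regions of all members that lay over no tRNA gene was 1.18. Over all distal regions without a tRNA gene it was 0.831. The 5 regions nearest to Kif2c lay within 500 bases of the start of a small nuclear RNA gene, Gm25099 (3 regions), Gm23143 or Gm23287, with signals from 0.720 and 0.752 to 7.58 and 5.20. No other member had such a region, and over all distal regions 64 of 39720 (0.161%) did.

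In 3 members, a count for which no share over other genes was computed, the strongest distal region exceeded the promoter. Of these regions, those of Aurkb and Nusap1 are described. For Aurkb it was chr11:69063021-69063200, with 8.58 and 10.4 against a mean of 6.14 at the promoter, over a tRNA gene for serine 17459 bases downstream. For Nusap1 it was chr2:119594181-119594340, 24037 bases upstream with 14.8 and 12.2 against a mean of 11.7, and 36 bases from the start of the noncoding gene 1700020I14Rik. By distance, Nusap1 was the nearest protein-coding gene to its region, and Aurkb was not.

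The ratio of the libraries was compared with that at other open genes. Before centring, 28 members were higher in replicate 1 and 4 (Nuf2, Knl1, Prc1 and Cdc25c) in replicate 2, or 12.5% against 17.5% of all open genes. After the median log2 ratio of all open genes (0.24) was removed, the members' median was -0.01. Their SD was 0.226, against 0.208 over 7911 genes with a signal at or above the lowest member. Plk1 stood highest at 0.31. Knl1 stood lowest at -0.81, and 78 of 13122 open genes (0.594%) had a ratio as low. The erythroid and B cell markers had median centred ratios of 0.08 and -0.66, and what part a difference in cell types between the libraries has in the members' ratios was not tested.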

How the data were processed

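The 2 spleen libraries formed 1 group. Per the deposited file listings, each has a longer and a stricter peak list, footprints, and stretches of bases each carrying a q-value (FDR) for their cut rate. The deposited peak lists give a signal per peak, of unstated scale. Every deposited footprint line has a q-value of 0.01, and the stretches hold values under 0.05. The assembly is mm10, per the labels; the aligner and callers were not given in the sources used here, and no read depth is given, so no counting interval could be made.

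Genes came from the GENCODE vM21 basic annotation, 1 per symbol, and tRNA genes and sequence from RefSeq's GRCm38.p6. A promoter was the window within 1 kb of any start site; peaks of the libraries were joined on any overlap (at least 1 bp). A word counted as protected when at least 3 of its bases lay in a replicate 1 footprint that overlapped one of replicate 2. Of the members, 26 were in the RefSeq promoter table, 23 of them with a start site within 50 bp of the one used. Promoter sequences were printed for members chosen as described beside them, except Cdc25c, which also met that rule and is not shown; Prc1 and the region near Aurkb were added after their values were seen. Named genes were all members, genes starting within 1 kb of one, and, of the other mitosis genes, the 5 highest and those without a peak. The members, lists and words were chosen with earlier results of these data known; the tRNA and small nuclear RNA genes were looked up after the regions were seen. With 1 group there was no test between samples, and genes are not replicates, so counts, medians and percentiles are descriptions. The steps were tested on simulated data. Alternatives were other windows, distances and start sites, the stricter list, no centring, and each library alone. Python 3.11.15, pandas 2.3.3, bedtools 2.31.1 and samtools 1.23.1 were used. One distal region is not reported here.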

Additional observations from a re-analysis of the deposited data

How the results depend on the processing

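Over 64 alternative values of 13 results, 49 stayed within the spread of the libraries or within 1.5 times the main count, and 15 did not. The members' median percentile of promoter signal among like-CpG genes, 68.7, was 69.2 with a window of 500 bases, 68.3 with 2500 bases and 69.0 with the most upstream start site, and 69.6 to 69.9 with either library left out. The median log2 ratio of the libraries was 0.23 without centring. The median number of distal regions was 1 within 25 kb, 6.5 within 100 kb, 2 with the stricter list and 3.5 to 4 with a library left out. Members without a distal region numbered 11 within 25 kb, 2 within 100 kb, 10 with the stricter list and 3 to 4 with a library left out. The CHR word was in 26 members (81.2%, against 26.8% of other open genes) from 500 bases before to 100 after the start site and in 25 (78.1%, against 17.7%) with the variant TTTAAA counted. The ratio of the libraries cannot be formed without either. No paired analysis was possible because there is only 1 group. Depth is unknown, and its effect on the counts of footprints and distal regions was not measured.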
